A study of Mus musculus with 8 samples.

Results

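The 4 mouse Hox clusters were examined for chromatin loops, topologically associating domains (TADs) and CTCF binding. They hold 38 Hox genes of 49997 genes in the RefSeq table. Members were taken by position in mm10. Hoxa was chr6:52150000-52265000 with 10 genes, Hoxb was chr11:96190000-96375000 with 10, Hoxc was chr15:102915000-103040000 with 9, and Hoxd was chr2:74660000-74775000 with 9. A loop belonged to a cluster when at least 1 of its 2 anchors overlapped it, a TAD when it touched it, and a CTCF peak when it lay inside. Of all listed loops, 47 of 8459 belonged to a Hox cluster in ES cells, against 22 of 8005 for lens epithelium and 25 of 7682 for fiber cells. Of all TADs, 8 of 3604, 7 of 1796 and 8 of 2641 did so in the same order. Of all CTCF peaks, 6 of 16433 lay in the clusters in lens epithelium and 20 of 23868 in lens fiber cells.

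The 3 cell types were compared by Hi-C, which counts contacts between DNA fragments that lie close together in the nucleus. Wild-type v6.5 embryonic stem (ES) cells, a pluripotent mouse line, were set against lens epithelium and lens fiber cells that were microdissected from untreated CD-1 mice at postnatal day 0.5. Each of the 2 lens Hi-C replicates per cell type pooled 30 lenses, and CTCF was measured by ChIP-seq on 200 pooled lenses per lens cell type. CTCF binding in ES cells was not analysed here. The files hold 1 loop list and 1 TAD list per cell type, made after both replicates were merged, so no difference between cell types below carries a replicate error, and none was tested. ES cells and lens also differ in strain background and in growth in culture against growth in the animal, and these cannot be told apart from the cell type. The depth cannot be computed from these files. The study describes the merged Hi-C maps as similar in total contacts, with a smaller part of them between chromosomes in ES cells. Loops with anchors of 5 kb, the finest width, made up 39.6% of the ES cell list, 18.3% of the epithelium list and 16.0% of the fiber list, and the part of this difference in the results below was not tested.

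Hox genes encode homeodomain transcription factors that give body segments their identity along the head-to-tail axis. Within a cluster the genes stand in the order in which they are switched on in time and along the body, from group 1 at the 3′ end to group 13 at the 5′ end. In pluripotent cells the clusters are known as silent regions covered by Polycomb proteins, which can bring distant target genes together. CTCF is a zinc finger protein that stops the cohesin complex as it extrudes loops, and it is found at many TAD borders, several of them inside Hox clusters. The head ectoderm from which the lens forms lies in front of the Hox expression domains. Expression was not measured in these files.

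The clusters also encode microRNAs, and those at 6 loci had RefSeq entries. Their mature strands are shown because the clusters carry related copies, and the capitals mark the seed, bases 2 to 8, by which a microRNA recognizes its targets. miR-10a from Hoxb and miR-10b from Hoxd share a seed, as do miR-196a, encoded in both Hoxb and Hoxc, and miR-196b from Hoxa. miR-196 is known to target several Hox transcripts.
mmu-miR-10a-5p: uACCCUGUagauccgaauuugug
mmu-miR-10b-5p: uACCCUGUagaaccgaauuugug
mmu-miR-196a-5p: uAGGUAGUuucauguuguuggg
mmu-miR-196b-5p: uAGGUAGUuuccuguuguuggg
mmu-miR-615-3p: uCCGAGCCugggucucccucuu

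The microRNA loci took part in loops unequally. The Mir615 locus, within the Hoxc5 gene, lay under anchors of 4 ES cell loops, 1 epithelium loop and 2 fiber loops. Mir196b, between Hoxa9 and Hoxa10, lay under 3 ES cell loops, 2 of them above 3 Mb, and under 0 loops in either lens list. Mir10a and Mir196a-2 each lay under 1 ES cell loop and 1 fiber loop, Mir10b under 1 fiber loop, and Mir196a-1 under none in the 3 lists.

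Promoter sequences, each from 250 bases before to 50 bases after a transcript start, were available in RefSeq (GRCm38.p6, the mm10 assembly) for 22 of the 38 genes, as 24 promoters. A first pair shows the letters at both ends of a long ES cell loop, from Hoxd10 at chr2:74691641-74691940 (plus strand) to Lhx2, a homeobox gene of forebrain and eye, at chr2:38339031-38339330 (plus strand). Capitals mark CpG dinucleotides, of which the Hoxd10 promoter holds 22 and the Lhx2 promoter 34.
Hoxd10: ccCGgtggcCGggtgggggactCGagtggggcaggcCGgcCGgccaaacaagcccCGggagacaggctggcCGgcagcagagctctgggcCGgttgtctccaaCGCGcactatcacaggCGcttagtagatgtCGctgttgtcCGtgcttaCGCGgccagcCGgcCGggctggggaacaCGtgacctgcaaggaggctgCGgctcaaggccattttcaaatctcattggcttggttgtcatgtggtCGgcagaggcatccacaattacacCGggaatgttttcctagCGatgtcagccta
Lhx2: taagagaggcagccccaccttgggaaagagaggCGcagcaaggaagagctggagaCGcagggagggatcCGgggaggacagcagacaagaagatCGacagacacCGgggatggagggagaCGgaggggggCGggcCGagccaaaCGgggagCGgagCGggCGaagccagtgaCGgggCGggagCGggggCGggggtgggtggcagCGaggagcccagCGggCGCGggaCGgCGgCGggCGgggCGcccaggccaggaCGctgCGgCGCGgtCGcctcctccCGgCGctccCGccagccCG

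Of the 24 Hox promoters 10 were from Hoxa, 3 from Hoxb, 1 from Hoxc and 10 from Hoxd, so their shares describe mostly Hoxa and Hoxd. Over the 24 Hox promoters the median was 14.5 CpG per 300 bases, from 4 to 45, against 7 over 32851 promoters of the whole table. The ratio of observed to expected CpG exceeded 0.6 in 12 of 24 Hox promoters (50%) and in 35.8% of all promoters. At the far anchors of the long ES cell loops described below, it did so in 13 of 20 promoters (65.0%). Promoters of neighbouring transcripts overlap and are not independent.

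A second pair shows the Hox promoters that a lens CTCF peak overlapped. Hoxa5 lies at chr6:52204538-52204837 (minus strand) and Hoxd9 at chr2:74697513-74697812 (plus strand), and capitals mark the bases under the fiber peak.
Hoxa5: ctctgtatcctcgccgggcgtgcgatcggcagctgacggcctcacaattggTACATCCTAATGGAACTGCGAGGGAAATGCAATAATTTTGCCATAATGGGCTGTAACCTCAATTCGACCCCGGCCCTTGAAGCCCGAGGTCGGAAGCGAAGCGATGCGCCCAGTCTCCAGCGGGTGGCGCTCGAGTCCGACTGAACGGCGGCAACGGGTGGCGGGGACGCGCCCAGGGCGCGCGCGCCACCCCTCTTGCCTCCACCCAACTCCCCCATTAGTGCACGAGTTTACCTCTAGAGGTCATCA
Hoxd9: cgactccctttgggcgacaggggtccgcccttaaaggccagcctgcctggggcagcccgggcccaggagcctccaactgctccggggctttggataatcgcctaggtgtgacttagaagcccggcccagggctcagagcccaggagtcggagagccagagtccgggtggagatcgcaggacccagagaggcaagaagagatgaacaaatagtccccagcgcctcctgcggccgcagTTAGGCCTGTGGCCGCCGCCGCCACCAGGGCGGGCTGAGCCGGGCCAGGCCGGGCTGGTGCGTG

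The fiber peak covered 249 bases of the Hoxa5 window, with its summit inside, at a fold enrichment of 7.50. It covered 64 bases of the Hoxd9 window, with the summit outside, at 4.60. Thus 2 of 24 Hox promoters (8.33%) met a fiber peak, against 4.44% of all promoters, and 0 of 24 met an epithelium peak, against 1.30%.

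By number, Hoxd and Hoxb led in ES cells and Hoxd in the lens. In ES cells 11 loops touched Hoxa, 14 Hoxb, 7 Hoxc and 15 Hoxd. In lens epithelium the numbers were 6, 3, 4 and 9, and in lens fiber cells 7, 5, 4 and 9. The clusters differ in length, and per 100 kb of cluster the ES cell list held 9.57 loops at Hoxa, 7.57 at Hoxb, 5.60 at Hoxc and 13.0 at Hoxd. As a share of each list, the Hox loops were 0.556% for ES cells, 0.275% for epithelium and 0.325% for fiber cells. Loop size, taken between anchor midpoints, ran from 35 kb to 45.4 Mb in ES cells, from 80 to 1100 kb in epithelium and from 100 to 1110 kb in fiber cells. Hoxb showed the widest gap between ES cells and lens epithelium, 14 loops against 3.

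Loops above 3 Mb separated the ES cell list from both lens lists. In ES cells 14 of 47 Hox loops were that long (29.8%, Wilson 95% interval 18.7 to 44.0%), against 3.72% of all ES cell loops. With anchors of 5 or 10 kb alone, 3 of 32 Hox loops were long (9.38%), against 0.938% of such loops in the ES cell list. By cluster they numbered 2 of 11 at Hoxa, 4 of 14 at Hoxb, 1 of 7 at Hoxc and 7 of 15 at Hoxd. In the lens, 0 of 22 epithelium loops and 0 of 25 fiber loops were long, with Wilson 95% upper limits of 14.9% and 13.3%. In the whole lists the shares were 1.05% and 1.07%. With so few long loops in the lens lists as a whole, an absence at the Hox clusters alone is not distinguishable from the background of those lists. These intervals cover counting error only. The 14 loops are not independent. They left from 8 distinct Hox anchors, and 6 of the 7 at Hoxd shared the anchor chr2:74675001-74700000.

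**Figure D1:**
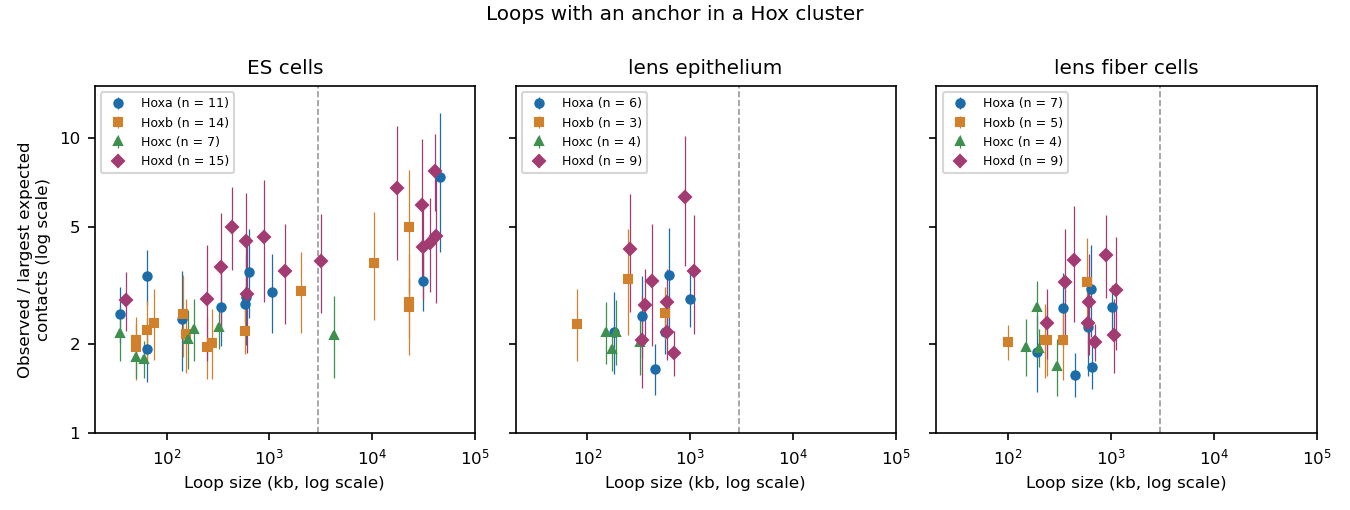
Each point is a loop with an anchor in a Hox cluster, plotted by its size in kb (log scale) and by observed contacts over the largest of the 4 expected values (log scale), with bars for the exact Poisson 95% interval of the observed count. The dashed line marks 3 Mb, to the right of which lie 14 ES cell loops and no lens loop.

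The shared Hoxd anchor covered Hoxd12, Hoxd11, Hoxd10 and Hoxd9, genes of the 5′ part of the cluster that pattern limbs and the caudal body. On one side it reached Lmx1b, a LIM homeobox gene of dorsal limb and eye, over 41.05 Mb, with 45 observed contacts (exact Poisson 95% interval 32.8 to 60.2) against a largest expected value of 5.82. HiCCUPS, the loop caller, estimates the expected contacts from 4 neighbourhoods of the loop, and the largest is used here. It reached Lhx2 over 36.35 Mb with 31 contacts against 7.02, and Nr4a2, an orphan nuclear receptor gene, over 17.575 Mb with 16 against 2.36. These loops, all to lower coordinates, had observed contacts 4.42 to 7.74 times the largest expected.

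On the other side the same anchor reached the region of the kidney and gonad regulator Wt1 over 30.45 Mb, with 14 contacts against 2.37. It reached Pax6, a regulator on which lens formation depends, and its neighbour Elp4 over 31 Mb, with 27 contacts (17.8 to 39.3) against 6.31. Meis2, which encodes a homeodomain cofactor of Hox proteins, was reached over 41.375 Mb with 18 contacts against 3.87. A narrower anchor of 10 kb over Hoxd11 and Hoxd10 reached Dlx1, a distal-less homeobox gene, over 3.15 Mb with 28 contacts against 7.30. The largest FDR that HiCCUPS gave over its 4 neighbourhoods was at most 0.00943 for these 7 loops. None of the 7 had a counterpart in a lens list.

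Hoxa sent both of its long loops from chr6:52225001-52250000, over Hoxa9, Hoxa10 and Hoxa11. The loop to Vax2, a ventral eye homeobox gene, spanned 31.475 Mb with 79 contacts (62.5 to 98.5) against 24.1. The loop to Dlx6 spanned 45.375 Mb, the longest of all, with 15 contacts (8.40 to 24.7) against 2.03. In both Hoxa and Hoxd the long loops thus started at group 9 to 12 genes, and the group 13 genes Hoxa13 and Hoxd13 lay under none of them.

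At Hoxb, 3 of the 4 long loops ended around Cbx8, a gene for a Polycomb subunit. They left from Hoxb13, from Hoxb9 to Hoxb6 and from Hoxb3, over 22.85, 22.75 and 22.72 Mb, with 19, 74 and 27 contacts against 3.82, 27.6 and 9.68. The 74-contact loop also had Cbx2, another Polycomb gene, under its far anchor, while that of the Hoxb3 loop ended 9.09 kb from Cbx8. The fourth joined Hoxb3 to Tbx2, a T-box regulator, and Bcas3 over 10.5 Mb with 24 contacts against 6.36. At Hoxc, Hoxc6, Hoxc5 and Hoxc4 were joined over 4.225 Mb to the Wnt ligand genes Wnt10b and Wnt1, with 41 contacts (29.4 to 55.6) against 19.1. This was the weakest of the 14, at 2.15 times the largest expected value and with an FDR of 0.0207.

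Listed developmental regulators stood at most of these far ends. Of 56 such genes on the chromosomes of the clusters, 15 lay under a far anchor of an ES cell Hox loop, 13 of them through long loops, against 28 of 5255 protein-coding genes in all (0.533%). At least 1 listed gene lay at 12 of the 14 long loops. Neither lens list had any of the 56, against 11 of 5255 genes (0.209%) in each. The list was chosen with earlier results of these data known, so its count is no independent evidence. Besides those already named, Evx1, an even-skipped homeobox gene beside Hoxa, was reached over 65 and 140 kb, and Sp9 over 1.42 Mb from Hoxd10 and Hoxd9. Neurod2, a neuronal gene outside the list, was reached from Hoxb at 2.025 Mb.

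Some distant partners of Hoxd were also joined to each other in ES cells. Of 21 pairs among the 7 far anchors, 4 had a loop of their own. How often far anchors of other long ES cell loops are joined was not computed. Lmx1b and Dlx1 were joined over 37.9 Mb with 58 contacts against 6.55, and Dlx1 and Wt1 over 33.6 Mb with 15 against 1.21. Meis2 was joined to Wt1 over 10.925 Mb with 13 contacts against 1.86, and to Pax6 over 10.375 Mb with 21 against 2.27. Between the far anchors at Wt1 and at Pax6, 0 loops were matched in ES cells. The study itself describes interactions of the Pax6 promoter region with Wt1 and with Meis2 in ES cells, not found in lens. The 0 therefore does not show that Wt1 and Pax6 are unconnected. The lens lists had loops for 0 of the 21 pairs. The far anchors at Hoxa formed 1 pair and those at Hoxb 3 pairs, with 0 joined in the 3 lists.

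Loops with both anchors inside the same cluster were listed in ES cells alone, a class named after the values were seen. There were 9 of 47 (19.1%, 10.4 to 32.5%), with 2 in Hoxa, 3 in Hoxb, 3 in Hoxc and 1 in Hoxd, from 35 to 65 kb in size. Loops of up to 65 kb made up 11.2% of the whole ES cell list, 7.27% of the epithelium list and 6.69% of the fiber list. These shares cover loops of that size at any place, a wider class. A 65 kb ES cell loop from Hoxa to Evx1, for example, left its cluster and is not among the 9. The lens values of 0 of 22 and 0 of 25 allow up to 13.6% and 12%, so a share like that of the whole lens lists was within reach of these counts. In Hoxb, the loop with the most contacts had anchors of 10 kb and joined Hoxb8 and Hoxb7 to Hoxb3 with 240 contacts (211 to 272) against 116. In Hoxc, Hoxc11 was joined to Hoxc6, Hoxc5 and Hoxc4 with 197 contacts against 110. In Hoxd, Hoxd10 and Hoxd9 were joined to the Hoxd3 gene body with 77 contacts against 27.3.

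By gene, loop anchors lay over 30 of the 38 Hox genes in ES cells and over 26 in each lens list. How many of all genes lie under an anchor in each list was not computed. The counts by gene thus describe the clusters without a background. Anchors of 5 to 25 kb often cover several genes, and long transcripts give Hoxa3, Hoxb3 and Hoxd3 wide spans, so the counts of neighbours are not independent. Hoxd10 and Hoxd9 had the most, 9 loops each in ES cells, of which 7 and 6 were long. In the lens Hoxd10 had 0 loops in both lists, as did Hoxa10 and Hoxa11, which had 3 and 2 in ES cells. Hoxd13, the gene of the digit and genital end of the cluster, had 0 loops in ES cells and 3 in each lens list. At least 1 of these 3 was also listed in ES cells, where its narrower anchor of 5 kb stopped short of the gene. Hoxa2, Hoxb1 and Hoxd1 lay under no anchor in the 3 lists, and 18 genes lay under an anchor in all 3.

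**Figure D2:**
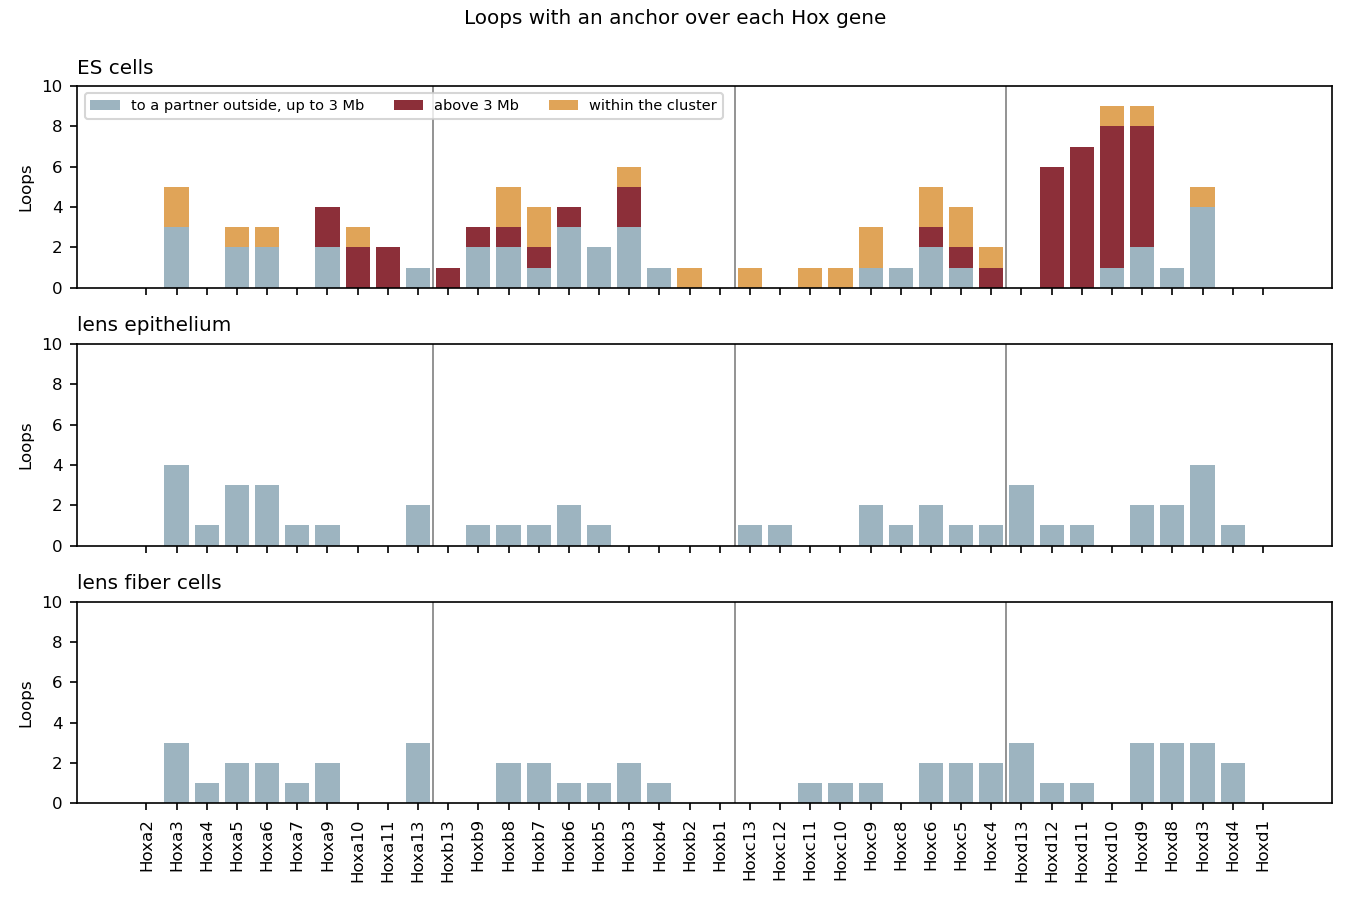
Bars give the number of loops with an anchor over each of the 38 Hox genes, in genome order within each cluster, stacked by kind. In ES cells the highest bars are the 9 loops at Hoxd10 and Hoxd9, mostly above 3 Mb, and in the lens panels no bar exceeds 4.

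In the lens each Hox gene under an anchor looped to 1 side of its cluster only, a pattern noticed after the values were seen. In lens epithelium 11 genes lay under anchors of loops toward lower coordinates and 15 under loops toward higher coordinates, with 0 genes in both sets. In lens fiber cells the numbers were the same. How many of all genes under lens anchors loop to 1 side only was not computed. The pattern therefore cannot be called particular to Hox genes. In ES cells the sets held 14 and 23 genes, with 11 in both. Most of those 11 rested on long loops, and with loops of up to 3 Mb only Hoxa3, Hoxb3 and Hoxd9 were in both sets.

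Hoxd showed the split with the same genes in both lens lists. The 4 loops to the 5′ side had Hoxd13, Hoxd12 and Hoxd11 under their anchors and spanned 360 to 1100 kb in epithelium and 360 to 1110 kb in fiber cells. The 5 loops to the 3′ side had Hoxd9, Hoxd8, Hoxd3 and Hoxd4, over 260 to 890 kb and 240 to 1075 kb. Hoxd is known to lie between a regulatory landscape on each side, of which the 5′ one serves digits and the 3′ one the proximal limb. The longest 5′ loop ended at Chrna1, a muscle acetylcholine receptor gene, with 20 contacts against 5.62 in epithelium and 22 against 7.21 in fiber cells. A 5′ loop of 600 kb over Hoxd13 was listed in both lens types with 57 and 67 contacts against 20.4 and 28.3. Its counterpart in ES cells spanned 595 kb with 27 contacts against 6.02, at an anchor of 5 kb beside the gene. An 890 kb loop from the end of Hoxd9 and Hoxd8 toward Hnrnpa3 had 17 contacts against 2.69 in epithelium, 40 against 9.93 in fiber cells and, at 880 kb, 19 against 4.12 in ES cells. In each lens list 1 of the 5′ loops met the cluster only at its first base.

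At Hoxa the lens split fell between Hoxa9 and Hoxa13. In both lens types Hoxa3 to Hoxa9 looped toward Skap2, Snx10 and Nfe2l3, and Hoxa13 alone toward Tax1bp1 and Jazf1. The Hoxa5 and Hoxa6 region was joined to Skap2, an adaptor protein gene, over 340 kb in all 3 lists, with 48 contacts in ES cells, 41 in epithelium and 50 in fiber cells, against 18.0, 16.4 and 18.9. Hoxa13 was joined to Jazf1 by 217 contacts against 79.4 in ES cells and by 141 against 63.8 in epithelium, both over 575 kb with anchors of 25 kb. The matching fiber loop of 590 kb had narrower anchors and 32 contacts against 14.0, with an FDR of 0.0577.

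At Hoxc, Hoxc13 and Hoxc12 in epithelium, and Hoxc11 and Hoxc10 in fiber cells, looped toward Calcoco1, over 175 kb with 152 contacts against 79.0 and over 200 kb with 177 against 90.8. Hoxc9 looped the other way to Smug1, a DNA repair gene, with 71 contacts against 31.5 in ES cells, where the anchor lay beside the gene, 65 against 29.4 in epithelium and 92 against 34.3 in fiber cells. At Hoxb, the single loop per lens list toward Ttll6 left from the gene-free stretch between Hoxb13 and Hoxb9. All others led from genes between Hoxb9 and Hoxb3 toward Skap1 and Copz2.

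Sharing of Hox loops between cell types depended on the distance allowed. A loop was first called shared when both anchor midpoints lay within 10 kb. In epithelium 14 of 22 were shared with fiber cells (63.6%, 43.0 to 80.3%) against 55.5% of the list, and 13 of 22 with ES cells (59.1%, 38.7 to 76.7%) against 37.9%. In fiber cells 14 of 25 were shared with epithelium (56.0%) against 57.8%, and 12 of 25 with ES cells (48.0%) against 38.1%. In ES cells 15 of 47 were shared with at least 1 lens list (31.9%, 20.4 to 46.2%) against 43.0%. The share of the list lay inside the interval of the Hox share in 4 of these 5 comparisons. It lay just below it for epithelium loops shared with ES cells. Within 25 kb, 21 of 22 epithelium loops and 22 of 25 fiber loops had a counterpart in the other lens list, against 71.4% and 74.5% of the lists. At the same 25 kb, 16 of 22 epithelium loops (72.7%) and 17 of 25 fiber loops (68.0%) had a counterpart in ES cells, against 49.0% and 50.5% of the lists. Of the ES cell loops, 15 of 47 (31.9%) had one in epithelium and 15 of 47 in fiber cells, against 46.7% and 45.9%. The Hox share thus lay above that of the list for the lens loops and below it for the ES cell loops, with no test.

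TADs divided the clusters differently in ES cells and lens. ES cells had 8 TADs at the clusters, with 12 borders inside them, and 4 of the 8 lay wholly inside a cluster, 1 in each. Lens epithelium had 7 and lens fiber cells 8, with 7 and 8 borders inside and 0 wholly inside. The ES cell TAD inside Hoxa began at chr6:52150001, at the very bound set for the cluster. Its class and the count of ES cell borders thus depend on that bound. Lens TADs at the clusters were 80 to 900 kb in epithelium and 100 to 900 kb in fiber cells, and those in ES cells 80 to 685 kb. The Hox TADs had a median size of 107.5 kb in ES cells, 345 kb in epithelium and 350 kb in fiber cells, and the whole lists 145, 335 and 135 kb. The largest TAD inside a cluster measured 100 kb, and TADs up to that size made up 27.4% of the ES cell list, 31.4% of the epithelium list and 28.3% of the fiber list. At the clusters they numbered 4 of 8, 1 of 7 and 1 of 8.

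The 4 ES cell TADs inside clusters enclosed most of their genes. At Hoxa one of 95 kb ended in Hoxa11 and held 8 whole genes from Hoxa2 to Hoxa10. At Hoxb one of 85 kb ran from the gap before Hoxb9 to between Hoxb2 and Hoxb1, with 8 whole genes. At Hoxc one of 100 kb held 8 whole genes, from Hoxc13 to Hoxc5. At Hoxd one of 80 kb ran from within Hoxd11 to between Hoxd3 and Hoxd1, with 5 whole genes.

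In the lens the borders cut the same clusters and opened outward. At Hoxd both lens lists had a TAD of 900 kb that began in Hoxd10 (chr2:74690001) and held Hoxd9, Hoxd8, Hoxd4, Hoxd3 and Hoxd1 with the 3′ side. A second TAD to the 5′ side ended between Evx2 and Hoxd13 in epithelium (620 kb) and at the first base of the cluster, in Evx2, in fiber cells (365 kb). At Hoxa the TAD on the 3′ side ended between Hoxa7 and Hoxa9 in epithelium (345 kb, at chr6:52220000). In fiber cells it ended nearby, between Hoxa6 and Hoxa7 (335 kb, at chr6:52210000). The fiber border lay within the long Hoxa3 transcript, which spans several neighbouring genes. At Hoxb a small TAD around Hoxb13 (80 and 100 kb) and a large one holding Hoxb9 to Hoxb1 (480 and 475 kb) were listed in both lens types. At Hoxc the TAD toward Smug1 began in Hoxc5 in epithelium (145 kb) and between Hoxc8 and Hoxc6 in fiber cells (170 kb).

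**Figure D3:**
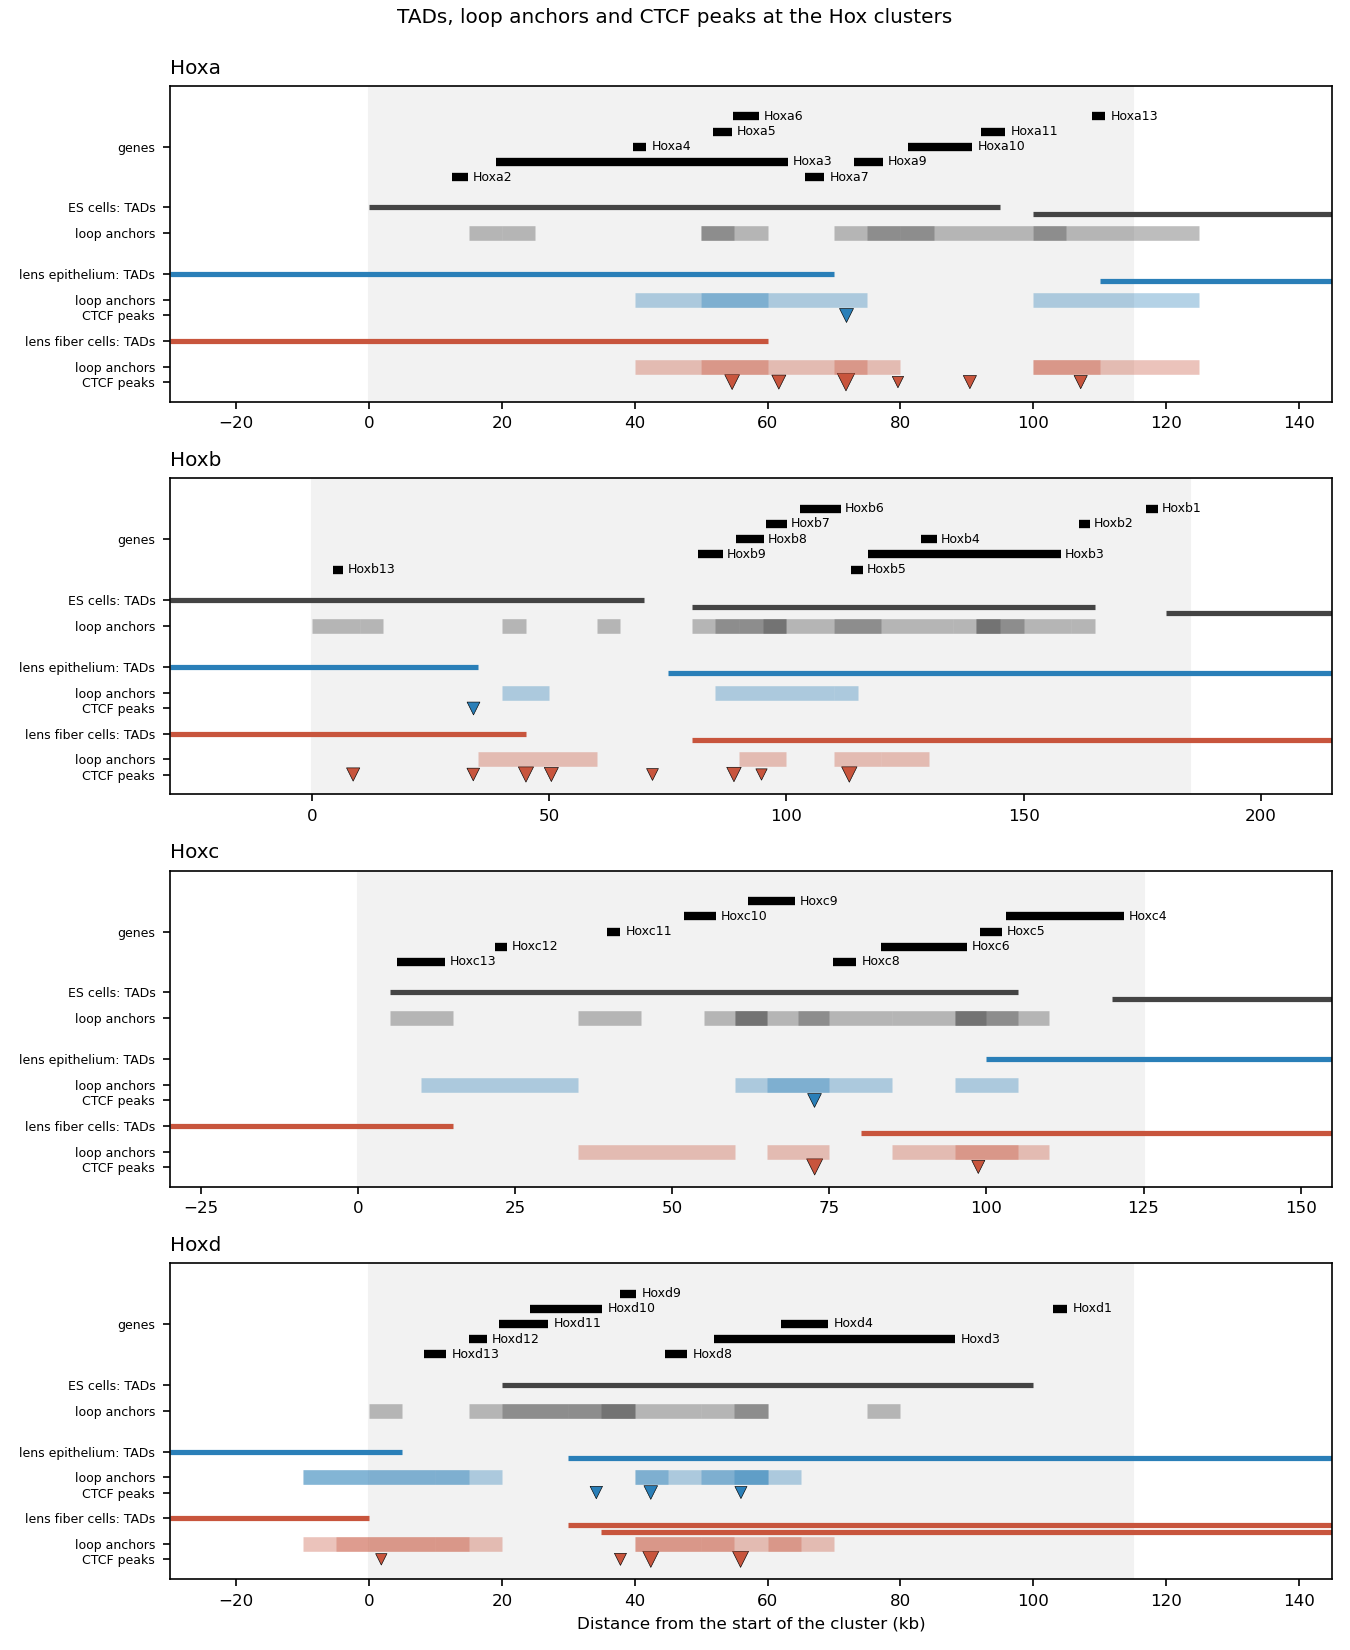
Maps of the 4 clusters by distance in kb from the cluster start, with genes (black bars), TADs (lines, cut at the panel edge), loop anchors inside the cluster (pale bars, darker where they overlap) and lens CTCF peaks (triangles, larger with higher fold enrichment); grey shading marks the cluster. The single ES cell TADs inside each cluster contrast with lens TADs that leave it, and the Hoxd panel shows lens anchors on either side of Hoxd10.

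CTCF peaks in the clusters were more numerous in lens fiber cells. Lens epithelium had 1 peak in Hoxa, 1 in Hoxb, 1 in Hoxc and 3 in Hoxd, and fiber cells had 6, 8, 2 and 4. Per 100 kb these were 1.11 peaks (exact Poisson 95% interval 0.408 to 2.42) in epithelium and 3.70 (2.26 to 5.72) in fiber cells, against 0.604 and 0.877 in the whole lists. The fiber list is longer, and cut to its 16433 peaks of highest −log10 q it still had 12 in the clusters, against 6. Each lens cell type has 1 peak list, so these counts have no replicate check.

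Of the 6 epithelium peaks 5 overlapped a fiber peak (83.3%, 43.6 to 97.0%), against 72.8% of the list. Of the 20 fiber peaks the same 5 overlaps made 25% (11.2 to 46.9%), against 50.1% of the list, so that 15 fiber peaks had no epithelium peak beneath them. All 8 fiber peaks but 1 at Hoxb and all 6 but 1 at Hoxa were of this kind.

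The strongest shared peak lay between Hoxa7 and Hoxa9 (fiber summit chr6:52221814), with a MACS2 fold enrichment of 6.51 in epithelium and 10.9 in fiber cells, the latter above 92.6% of fiber peaks. The epithelium Hoxa TAD ended 1.87 kb from the epithelium summit. The epithelium TAD borders inside the clusters lay from 1.01 to 41.0 kb from the nearest epithelium summit. The peak between Hoxc9 and Hoxc8 had 6.30 and 8.97, and that between Hoxd9 and Hoxd8 had 6.12 and 8.96. A peak inside Hoxd3 had 4.60 and 8.92, and one between Hoxb13 and Hoxb9 had 5.33 and 5.15. The summits of the 5 pairs were 5 to 56 bases apart. Fold enrichments from separate peak calls are given side by side and were not compared between cell types.

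Of the peaks in 1 list only, Hoxb carried the highest. A fiber peak between Hoxb6 and Hoxb5 had a fold enrichment of 8.12. Another between Hoxb13 and Hoxb9 had 7.90 and stood at the end of the small fiber TAD at Hoxb13. The fiber TAD borders inside the clusters lay from 0.074 kb, at this peak, to 57.6 kb, at Hoxc, from the nearest fiber summit. The listed borders fall in steps of 5 kb, so smaller distances are not resolved. The peak over the Hoxa5 promoter, whose sequence is given above, came next at 7.50. The lone peak found in epithelium only lay in Hoxd10, at 4.91. Over all Hox peaks the median fold enrichment was 5.73 in epithelium and 6.16 in fiber cells, near the 5.78 and 6.44 of the whole lists, so the Hox peaks were of ordinary height.

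**Figure D4:**
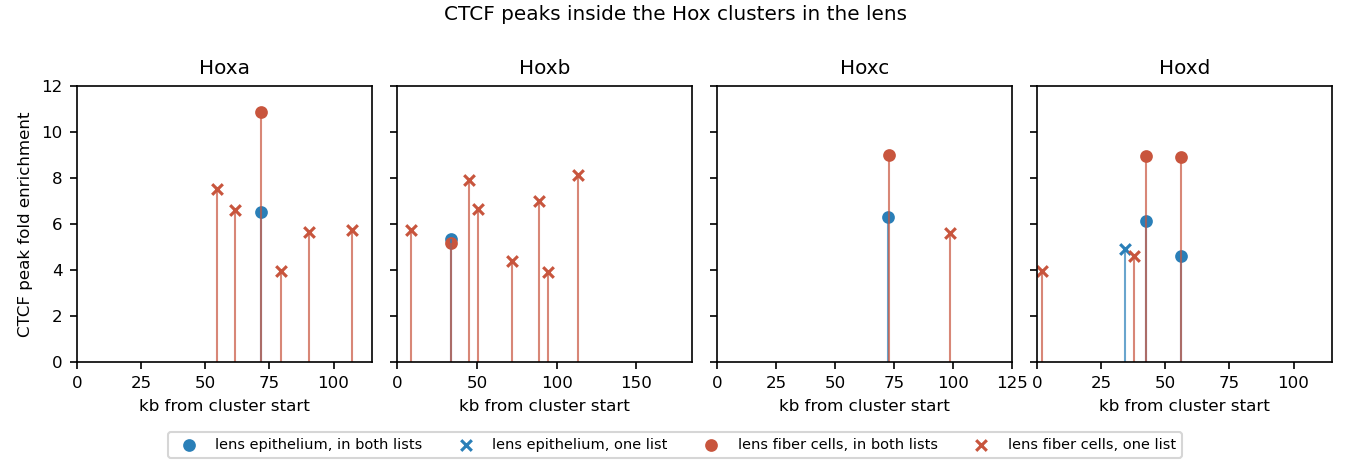
Fold enrichment of each CTCF peak inside the clusters against its distance in kb from the cluster start, for lens epithelium (blue) and lens fiber cells (red); circles are peaks found in both lists and crosses peaks in 1 list. The 5 pairs of circles and the 15 red crosses, mostly in Hoxa and Hoxb, show the excess of fiber peaks.

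CTCF peaks stood at many of the Hox anchors, as they did at many anchors of the whole lists. In epithelium 10 of 22 loops had an epithelium peak at the Hox anchor (45.5%, 26.9 to 65.3%) against 38.1% of all anchors. In fiber cells 19 of 25 had a fiber peak (76.0%, 56.6 to 88.5%) against 61.2%. In both cases the share of all anchors lay inside the interval of the Hox share. Some loops used the same Hox anchor, so the loops are not independent. With the fiber peaks, 19 of 22 epithelium loops were bound (86.4%) against 59.7% of all epithelium anchors, while 8 of 25 fiber loops met an epithelium peak (32.0%) against 39.5%. By cluster, the epithelium loops were bound by epithelium peaks at 3 of 6 Hoxa, 0 of 3 Hoxb, 2 of 4 Hoxc and 5 of 9 Hoxd anchors. The fiber loops were bound by fiber peaks at 6 of 7, 4 of 5, 3 of 4 and 6 of 9. The peaks in turn lay at a Hox loop anchor of their own cell type for 4 of 6 in epithelium and 14 of 20 in fiber cells. For all peaks of each list the share at a loop anchor was not computed, so these 2 counts have no background.

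Anchors of the ES cell loops were set beside the lens peaks only as a map of sites, since ES cell peaks were not analysed here. Fiber peaks lay at the Hox anchor of 11 of 14 long ES cell loops and at the far anchor of 5 of 14, against 54.7% of all ES cell anchors. Of the 9 loops within a cluster, 5 had a fiber peak at an anchor and 0 an epithelium peak. Wide anchors meet a peak more readily, and 11 of the 14 long loops had anchors of 25 kb. The 14 loops also left from only 8 distinct Hox anchors. Peaks at a reused anchor are counted once per loop, so the 11 are not independent.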

How the data were processed

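Hi-C reads of both replicates per cell type were aligned by the authors with bwa-mem, filtered at a mapping quality of 30 and merged. Loops were called with HiCCUPS and TADs with Arrowhead (Juicer Tools 2.13.06 per the file headers, build mm10). In the deposited loop lists the observed contacts are raw counts, the expected contacts come from HiCCUPS, and the FDR values are q-values. CTCF ChIP-seq peaks were called by the authors with MACS2, and the deposited peaks carry a score, a fold enrichment (a ratio over background) and the −log10 of p and q. The labels show 1 ChIP-seq sample per lens cell type, while the study's methods state 2 biological replicates. Whether the lists pooled them is not given in the sources used here.

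From these lists, overlaps of at least 1 bp, sizes, shares with Wilson 95% intervals and exact Poisson 95% intervals were obtained with scipy 1.17.1, pandas 2.3.3 and numpy 2.4.6 under Python 3.11.15 (figures: matplotlib 3.10.9). The 10 checks on simulated data gave the known answers. Cluster bounds were counted 1-based with both ends included. Genes named were the members, the genes under a far anchor or else the nearest protein-coding gene, and listed neighbours and developmental genes (RefSeq, GRCm38.p6). Members and lists were chosen with earlier results of these data known. Predicted genes and non-member Hox genes were not named. Alternatives changed the overlap rule, cluster bounds, FDR limit, anchor width, size limit, sharing tolerance, TAD size and peak threshold. The depth cannot be computed from these files, and intervals cover counting error only.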

Additional observations from a re-analysis of the deposited data

How the results depend on the processing

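Of 73 alternative values for 26 results, 61 stayed within 1.5 times the count or within the interval of the share, and 15 results did so under each alternative run. Loops with anchors of 5 or 10 kb alone left 3 long Hox loops in ES cells (9.38% of 32 Hox loops, against 0.938% of such loops in the list) and 14 Hox loops in lens epithelium. Loops of up to 3 Mb left 3 ES cell genes with loops to both sides. The anchor limit on long loops and the alternatives for loops within clusters, for sides and for the first base were chosen after seeing the data. Within 25 kb, sharing rose to 95.5% of epithelium loops with fiber cells, 88.0% of fiber loops with epithelium and 68.0% of fiber loops with ES cells, and overlapping anchors gave 28.0% for the last. TADs of at least 200 kb numbered 2 in ES cells and 5 in fiber cells. The fiber peak list at the size of the epithelium list had 12 Hox peaks. With the peaks of the other lens cell type, 86.4% of epithelium and 32.0% of fiber Hox anchors were bound. The cause was not tested. Leaving out features that meet a cluster only at its first base gave 21 epithelium loops, 24 fiber loops and 7 fiber TADs. The long loops in ES cells numbered 15 above 2 Mb, 12 above 5 Mb and 11 with a largest FDR below 0.01, and the lens lists had 0 in each case. No paired analysis was possible because the replicates were merged before loops and TADs were called, and for the same reason no replicate could be left out. HiCCUPS and MACS2 depend on depth, and features missing from a list were not shown to be absent.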
